A study of Mus musculus with 30 samples.

Results

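The mRNAs of the Mediator complex and of the TBP-associated factors (TAFs) were examined in 2 mouse spermatogonial stem cell (SSC) lines. Members were all genes listed with an expression value or an mRNA half-life whose symbol was *Med* or *Taf* followed by a digit, with the exception of the germ-cell genes *Taf7l* and *Taf4b*. This gave 50 of the 14558 genes listed in either data set. Of these 50 genes, 48 had an expression value, 40 had a half-life and 38 had both. *Med15* and *Taf11* had a half-life only, and the annotated genes *Taf8* and *Med9os*, an antisense RNA, had neither. The 50 genes comprised 30 Mediator subunits, 13 TFIID subunits and 7 genes with a TAF name whose products act elsewhere. The latter were *Taf5l* and *Taf6l* (SAGA coactivator), *Taf1a*, *Taf1b*, *Taf1c* and *Taf1d* (SL1, the promoter factor of RNA polymerase I) and *Taf15* (an RNA-binding protein of the FET family).

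SSC lines are cultures of the stem cells that maintain spermatogenesis, and NANOS2 is an RNA-binding protein that these cells need for self-renewal. Both lines were derived from testes of male mice at postnatal day 7 and were grown on fibroblast feeders. Line 4 was *Nanos2* TAG/+ and line 5 was *Nanos2* TAG/TAG, so that both carried the endogenous *Nanos2* gene with V5, Myc, His and EGFP sequences fused to its N-terminus, on 1 allele or on both. Neither line lacked NANOS2, and each genotype was represented by a single line. RNA-seq was performed on 1 library of ribosomal RNA-depleted total RNA per line. mRNA half-lives came from SLAM-seq, in which RNA is labelled with 4-thiouridine and the labelled fraction is followed after the label is withdrawn. For each line, 12 libraries covered 6 chase times from 0 to 1440 min. A single half-life per transcript and line was deposited, with no error. The expression columns were matched to the lines by the letters of their names (GG and Gp), which the labels do not explain, and the direction of every FPKM difference rests on this match. Comparisons between the lines had no replicate check and no test, and the values below are descriptions of these libraries.

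Mediator is a large coactivator that connects transcription factors bound at enhancers with RNA polymerase II at promoters. Its head and middle modules contact the polymerase, its tail receives most activators, MED14 is the backbone that joins these modules, and a detachable kinase module regulates the access of the polymerase. TFIID consists of the TATA-binding protein TBP and the TAFs, recognises the core promoter and nucleates the assembly of the pre-initiation complex. In germ cells some TAFs have tissue-restricted paralogues, of which TAF4B and TAF7L are the best known.

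Expression is given as FPKM, reads scaled to transcript length and to a depth factor per library. This factor was 10908790 (TAG/+) and 11738620 (TAG/TAG). The recovered reads summed to 10931439 and 11627842, so the factor is not a total of reads. The length that fits the values is the mean over the annotated transcripts of a gene, so comparisons of level between genes depend on the annotation. Reads were recovered from FPKM, and intervals from them are 95% exact intervals that cover counting error only. *Nanos2* itself was at 27.5 FPKM (TAG/+) and 23.8 FPKM (TAG/TAG). Of 12 markers of undifferentiated spermatogonia, 11 were listed, none at 0, with a summed FPKM of 953 (TAG/+) and 1143 (TAG/TAG), and 4 of these 11 were higher in TAG/TAG. Of 9 feeder fibroblast markers, 8 were listed, none at 0, with sums of 378 and 524, and 7 of these 8 were higher in TAG/TAG. All 4 markers of differentiating spermatogonia were lower in TAG/TAG, with sums of 237 and 172, and *Sox9* and *Wt1*, the 2 listed of 3 Sertoli markers, summed to 4.70 and 24.1. The labels give QIAzol extraction for the TAG/+ library and Trizol for the TAG/TAG library, so genotype, line and reagent cannot be told apart, and the part of the marker genes in the differences below was not tested. In such bulk RNA, fewer cells of a type and less RNA per cell cannot be told apart either.

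Mediator and TAF genes were expressed above most genes in both lines. The median FPKM of the 48 genes was 45.5 in TAG/+ (interquartile range 22.4 to 77.4) and 42.7 in TAG/TAG (19.2 to 72.1), compared with medians of 10.2 and 10.5 over all 13904 genes. The order of the genes was similar in both lines, with a Spearman's rho of 0.94 across the 48 genes and 0.93 across all genes (descriptions across genes that share both libraries).

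Subunits of the same complex had mRNAs at widely different levels. The highest 3 genes by mean FPKM were *Med25*, *Med24* and *Taf6*. *Med25*, a tail subunit contacted by activators of the ETS and retinoid receptor families, was at 279 FPKM in TAG/+ and 330.0 in TAG/TAG. *Med24*, its neighbour in the tail, was at 258 and 254, but it shares exon sequence with a small nucleolar RNA gene on the same strand. *Taf6*, whose product forms a histone-fold pair with TAF9, was at 206 and 221. The lowest 3 were *Taf13*, *Med12l* and *Med30*. *Taf13* encodes the histone-fold partner of TAF11 and was at 2.70 FPKM (TAG/+) and 0.26 (TAG/TAG), from 38 and 4 reads. *Med12l*, a paralogue of the kinase-module subunit *Med12*, was at 5.70 and 5.32. *Med30*, a metazoan subunit between head and tail, was at 10.5 and 1.31, from 82 and 11 reads.

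**Figure D1:**
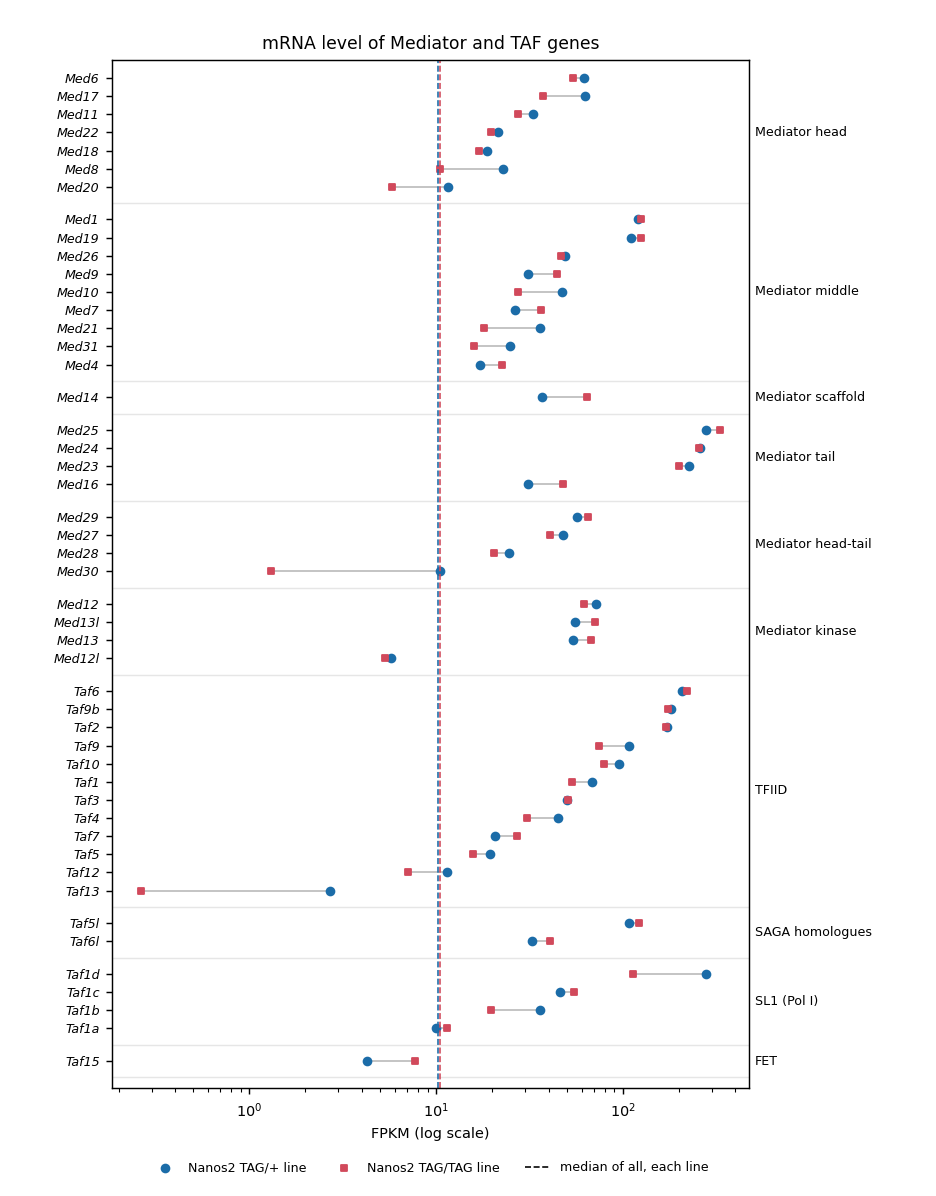
Expression of 48 Mediator and TAF genes, grouped by module. The x axis is FPKM on a log scale, circles are the TAG/+ library, squares the TAG/TAG library, grey lines join the values of a gene, and dashed lines mark the medians of all 13904 genes (10.2 and 10.5). The tail genes *Med23*, *Med24* and *Med25* lie above 200 FPKM in both lines, and *Taf13*, *Med30* and *Taf1d* have the widest gaps between lines.

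Among the modules of Mediator, the tail had the highest median level. The 4 tail genes with a value had a median FPKM of 241 in TAG/+ and 227 in TAG/TAG. Of these, *Med23*, *Med24* and *Med25* were at 200.4 or above in both lines, whereas *Med16* was at 31.1 and 47.9. *Med23* shares exon sequence with a small nuclear RNA gene and *Med24* with a small nucleolar RNA gene, both on the same strand. The levels of *Med23* and *Med24*, and with them the tail median, are therefore uncertain. The 7 head genes had the lowest module medians, 22.8 and 19.7. Medians of the 9 middle genes were 36.0 and 36.5, and those of the 4 kinase-module genes were 54.8 and 64.7. The 12 TFIID genes with a value had medians of 59.2 and 52.0. Thus modules differed in level within the same library, although each holds few genes.

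Paralogue pairs also differed in level. *Med12*, which activates the Mediator kinase, was at 71.6 FPKM (TAG/+) and 62.0 (TAG/TAG), more than *Med12l* at 5.70 and 5.32. However, *Med12* shares exon sequence with the gene *Gm21986* on the same strand, so its level is uncertain. *Med13*, which tethers the kinase module to the core, was at 54.3 and 67.4, close to its paralogue *Med13l* at 55.3 and 71.2. In TFIID the order was the other way round for 1 pair, since *Taf9b* was at 180.5 and 174 and *Taf9* at 107 and 74.8. *Taf5l*, the SAGA homologue, was at 107 and 122, above *Taf5* at 19.4 and 15.7. Of the windows of *Taf5l*, however, 80.6% are unique in the genome, taken as 50-base windows of its exons. *Taf6l*, in contrast, was at 32.7 and 40.6, below *Taf6*. *Taf9* shares exon sequence with the gene *Ak6* on the same strand, and 67.6% of its 50-base windows are unique in the genome, so its level is uncertain.

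Between the lines, 29 of the 48 Mediator and TAF mRNAs (60.4%) were lower in TAG/TAG by any amount, beside 49.5% of all genes, and 19 were higher. A difference is given as log2 of the ratio of TAG/TAG to TAG/+ after 0.1 FPKM was added to both. The median difference of the 48 genes was -0.11, and that of all genes was 0.01. Past 1.5-fold, 3 of the 48 genes (6.25%) were higher in TAG/TAG, where 22.8% of all genes were. Past the same fold, 11 genes (22.9%) were lower, beside 19.4% of all genes. Past 2-fold, 4 genes were lower (8.33%, beside 9.59% of all genes) and none was higher, beside 13.5% of all genes. These counts use the log2 difference, whereas folds given for single genes below come from the recovered reads, without the added 0.1. By reads, *Med20* (2.01-fold) and *Med21* (2.004-fold) were also just past 2-fold lower. The background was smaller at middle levels of expression. Among the 3210 genes with a mean FPKM inside the interquartile range of these genes (20.5 to 71.9), 11.7% were higher and 12.7% lower past 1.5-fold, and of the 24 Mediator and TAF genes in that range, 2 were higher and 4 lower.

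The head was the only Mediator module with more than 1 gene in which every gene was lower. All 7 head genes had a lower FPKM in TAG/TAG, by a median of -0.25 on the log2 scale. By any amount, 49.5% of all genes were lower. Past 1.5-fold, 3 head genes were lower, beside 19.4% of all genes and 12.7% of those at a mean FPKM of 20.5 to 71.9. *Med8*, a head subunit that binds the TBP-contacting jaw formed by MED18 and MED20, was at 22.8 FPKM in TAG/+ and 10.4 in TAG/TAG, 2.18-fold lower (1.73 to 2.77, from 223 and 110 reads). *Med20* was at 11.6 and 5.78, 2.01-fold lower (1.67 to 2.42). *Med18*, with which MED20 forms a pair, differed by less, at 18.7 and 17.0, 1.10-fold lower with an interval of 0.91 to 1.32 that includes no difference. *Med17*, the central head subunit, was at 62.8 and 37.5, 1.67-fold lower (1.52 to 1.84, from 1072 and 690 reads). *Med6*, *Med11* and *Med22* differed by -0.21, -0.25 and -0.12 on the log2 scale. The intervals of *Med11* (0.998 to 1.43) and *Med22* (0.94 to 1.25), as folds lower, also include no difference. *Med20* shares exon sequence with the predicted gene *Gm20517* on the same strand, so its level is uncertain. The head genes had a median of 1150.5 nucleotides in mean annotated transcript length. Of all 3707 genes under 1200 nucleotides, 2067 were lower by any amount and 1038 past 1.5-fold.

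Genes of the middle module went both ways. *Med21*, the coiled-coil partner of MED7, was at 36.0 FPKM (TAG/+) and 17.97 (TAG/TAG), 2.004-fold lower (1.68 to 2.40). *Med7* itself was at 26.4 and 36.5, 1.38-fold higher (1.19 to 1.61). *Med10* was at 47.0 and 27.4, 1.71-fold lower (1.51 to 1.95), and *Med31*, which binds MED7, was at 24.9 and 16.03, 1.55-fold lower (1.28 to 1.88). Thus MED7 contacts products whose mRNAs differed in the opposite direction to its own. *Med7*, *Med10*, *Med21* and *Med31* each share exon sequence with a gene on the opposite strand. Of the 50-base windows of *Med21*, 92.3% are unique, so some of its reads could be shared. Of the 9 middle genes, 4 were lower and 5 higher by any amount, where 49.5% of all genes were lower. Past 1.5-fold, 3 were lower, beside 19.4% of all genes, and none was higher, beside 22.8%. Among all genes with a mean FPKM of 20.5 to 71.9, these shares were smaller, 12.7% and 11.7%. *Med1*, the subunit bound by nuclear receptors, was at 120.1 and 125, and *Med26*, which recruits elongation factors, was at 48.9 and 46.8.

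*Med14* was the Mediator gene with the largest difference upwards. Its mRNA was at 37.0 FPKM in TAG/+ and 64.5 in TAG/TAG, from 1534 and 2879 reads, 1.74-fold higher (1.64 to 1.86). *Med16*, a tail subunit, was at 31.1 and 47.9, 1.54-fold higher (1.38 to 1.72), but 92.2% of its 50-base windows are unique, so some of its reads could be shared. *Taf15* was the only other gene past this fold, at 4.26 and 7.69 FPKM, 1.81-fold higher (1.28 to 2.57) on 53 and 103 reads. The remaining tail genes *Med23*, *Med24* and *Med25*, with the highest levels in Mediator, differed by -0.16, -0.02 and 0.24.

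*Taf13* and *Med30* had the largest differences, on few reads. *Taf13* (chr3:108571698-108583222, plus strand, GRCm38) was 10.2-fold lower in TAG/TAG, with an interval of 3.68 to 39.4. *Med30* (chr15:52712408-52730564, plus strand) was 8.02-fold lower, with an interval of 4.26 to 16.7. Both intervals lie beyond 1.5-fold, although they hold only the counting error of 1 library each. Of the windows of *Taf13*, 81.5% are unique in the genome. *Taf13* was also measured by SLAM-seq, where its half-life was 182 min in TAG/+ and 155 min in TAG/TAG, whereas no half-life was listed for *Med30*.

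In TFIID, 9 of 12 genes were lower and 3 higher by any amount, where 49.5% of all genes were lower. Besides *Taf13* only *Taf12* passed 1.5-fold, where 19.4% of all genes were lower and 22.8% higher past that fold. Among all genes with a mean FPKM of 20.5 to 71.9, 12.7% were lower and 11.7% higher. *Taf12*, the histone-fold partner of TAF4, was at 11.5 FPKM (TAG/+) and 7.07 (TAG/TAG), 1.63-fold lower (1.30 to 2.04, from 201 and 133 reads). *Taf4* was at 44.8 and 30.5, 1.47-fold lower (1.34 to 1.60). *Taf9* and its pair *Taf6* differed by -0.52 and 0.10. Large TFIID subunits also differed among themselves. *Taf2*, which contacts the initiator element, was at 171.9 and 169.9, *Taf3*, whose PHD finger reads histone H3 methylated at lysine 4, was at 50.1 and 50.9. *Taf1*, the largest subunit, was at 68.2 and 53.1, 1.28-fold lower (1.22 to 1.35).

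Of the TAF genes outside TFIID, both lower ones belonged to SL1. *Taf1d* (chr9:15306214-15316991, plus strand) was at 279 FPKM in TAG/+ and 113 in TAG/TAG, 2.48-fold lower (2.35 to 2.61, from 4647 and 2019 reads). The gene holds 8 annotated small nucleolar RNA genes, and it shares exon sequence with other genes on the opposite strand. Since the use of strand in counting is not given in the sources used here, its level is uncertain. *Taf1b*, the subunit that acts like TFIIB at rDNA promoters, was at 35.9 and 19.6, 1.83-fold lower (1.60 to 2.10), with 89.0% of its windows unique. *Taf1a* and *Taf1c*, of the same complex, were at 10.0 and 11.5 and at 46.2 and 54.9 and so slightly higher in TAG/TAG. *Taf5l* and *Taf6l* were higher by 0.18 and 0.31 on the log2 scale.

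**Figure D2:**
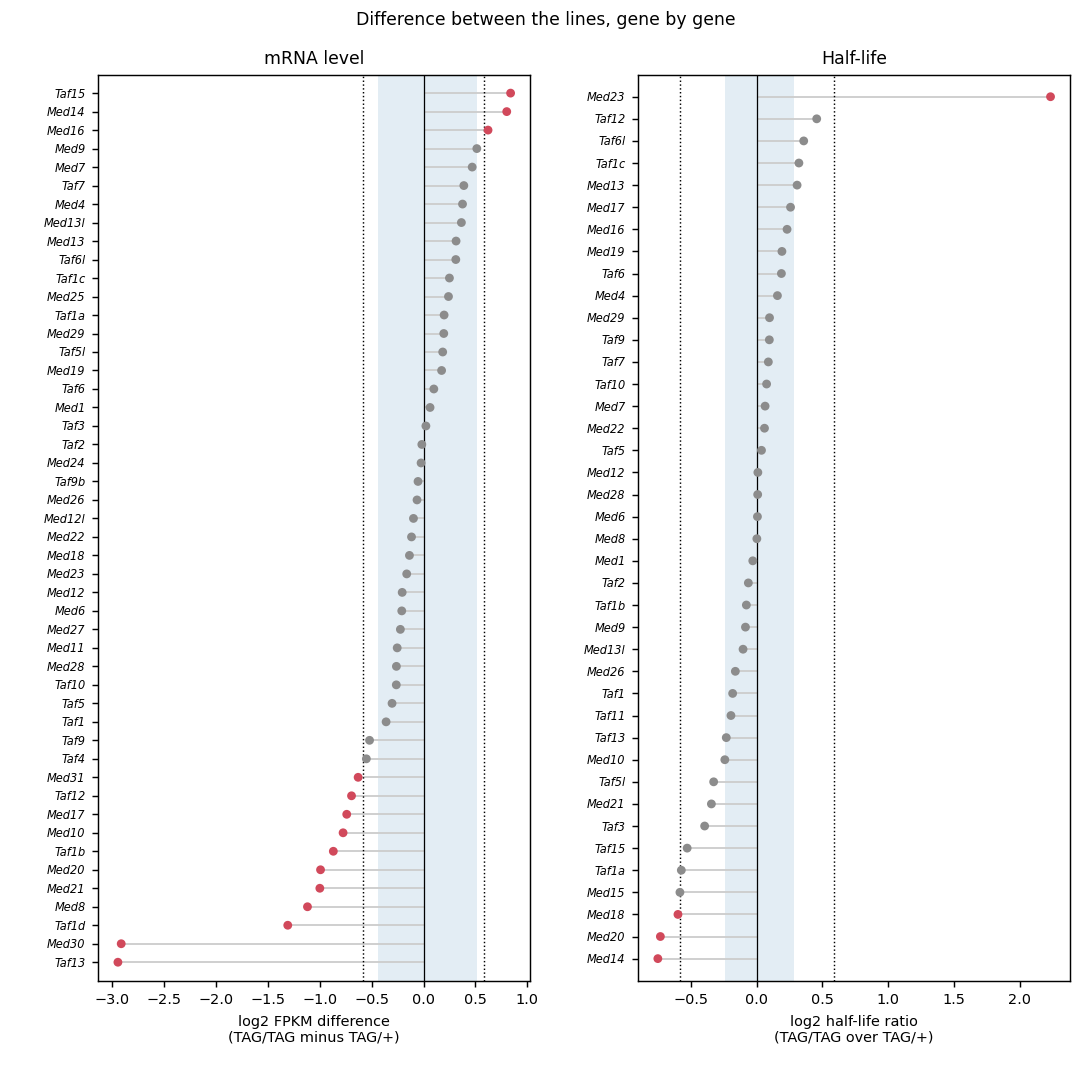
Differences between the lines for each gene, in rank order. The left panel shows the log2 FPKM difference of 48 genes and the right panel the log2 half-life ratio of 40 genes (TAG/TAG relative to TAG/+), each point being 1 value per gene. Dotted lines mark 1.5-fold, red points lie past it, and the shaded band spans the quartiles of all genes or transcripts. On the left 11 genes lie past 1.5-fold below 0 and 3 above it, and on the right *Med23* stands apart at 2.23.

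Differences were also set beside transcript length. Of the 11 genes with a mean annotated transcript length under 1200 nucleotides, 4 were lower past 1.5-fold and 1, *Taf15*, was higher, beside 1038 lower and 773 higher of all 3707 genes of that length. Their median log2 difference was -0.25, compared with -0.11 for all genes of that length. Genes of 1200 to 1800 nucleotides had a median of -0.07 (0.02 over all genes) and longer genes -0.02 (0.06 over all genes). Across the 48 genes, the log2 difference and length had a Spearman's rho of 0.31, and across all genes with a length 0.11. The genes past 1.5-fold of 1800 nucleotides or more were *Med20*, which was lower, and *Med14*, which was higher. The part of transcript length and of RNA extraction in these differences was not tested.

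**Figure D3:**
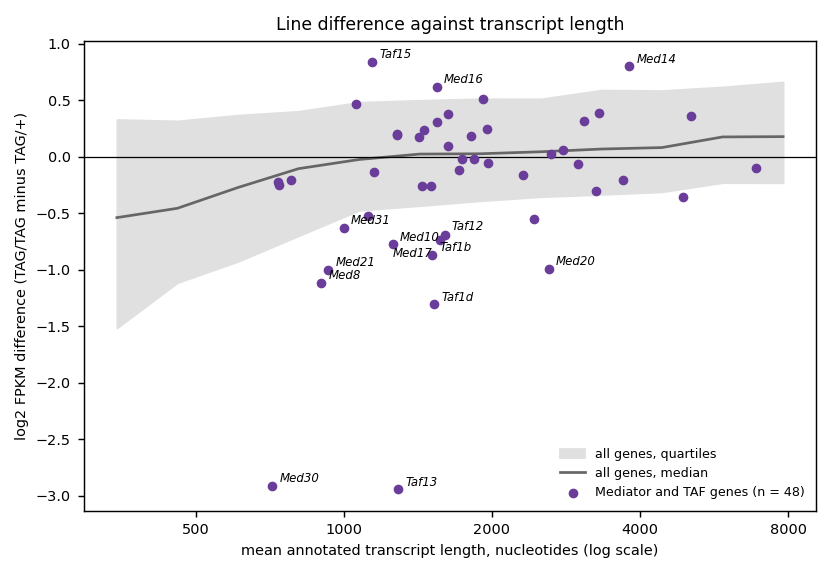
Log2 FPKM difference between the lines (TAG/TAG relative to TAG/+) against mean annotated transcript length in nucleotides (log scale). Points are the 48 Mediator and TAF genes, with names for those past 1.5-fold, the line is the median of all genes in length bins and the shaded band their quartiles. The median of all genes lies below 0 at short lengths and slightly above 0 at long lengths, and *Med30* and *Taf13* lie far below the band.

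Half-lives of these mRNAs were close to those of other transcripts. The median of the 40 transcripts was 234 min in TAG/+ and 212 min in TAG/TAG, compared with 224 min and 226 min over all 5806 transcripts. Below the median of all transcripts in both lines lay 17 of the 40 (42.5%, beside 39.8% of all transcripts), and above it in both lines lay 18 (45.0%, also beside 39.8%). The order of half-lives was kept between the lines, with a Spearman's rho of 0.82 across the 40 transcripts and 0.77 across all. Half-life increased with FPKM across all transcripts, with a rho of 0.49 in TAG/+ and 0.47 in TAG/TAG. Among the 38 Mediator and TAF transcripts with both measurements, rho was 0.30 and 0.43. These correlations are descriptions across transcripts that share libraries, and transcripts are not independent replicates.

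The longest half-lives by mean of both lines were those of *Med23*, *Taf10* and *Taf6*. The rank of *Med23* rests on the TAG/TAG line alone, since it was at 241 min in TAG/+ and 1133 min in TAG/TAG. *Taf10*, which is shared between TFIID and SAGA, had a half-life of 515 min in TAG/+ and 543 min in TAG/TAG. *Taf6* had half-lives of 431 min and 491 min, so it was high in both mRNA level and half-life. *Taf1*, *Taf6*, *Taf10* and *Med16* were the 4 transcripts above the third quartile of all transcripts in both lines (10%, beside 19.1% of all transcripts). *Taf1* was at 384 min and 339 min and *Med16* at 312 min and 366 min. The median of the 11 TFIID transcripts was 258 min in TAG/+ and 257 min in TAG/TAG, and that of the 23 Mediator transcripts was 232 min and 209 min.

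The shortest half-lives by mean were those of *Taf1a*, *Med18* and *Med13*. *Taf1a* had 98.4 min in TAG/+ and 66.2 min in TAG/TAG, *Med18* had 109 min and 72.2 min, and *Med13* had 92.9 min and 115 min. With *Med26* (114 min and 102 min) and *Med7* (125 min and 131 min), these were the 5 transcripts below the first quartile in both lines (12.5%, beside 15.6% of all transcripts). The short half-life of *Med13* did not extend to its paralogue, since *Med13l* was at 225 min and 209 min with a similar FPKM. *Med18* was the shortest-lived head transcript in both lines, among the 6 with a half-life.

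**Figure D4:**
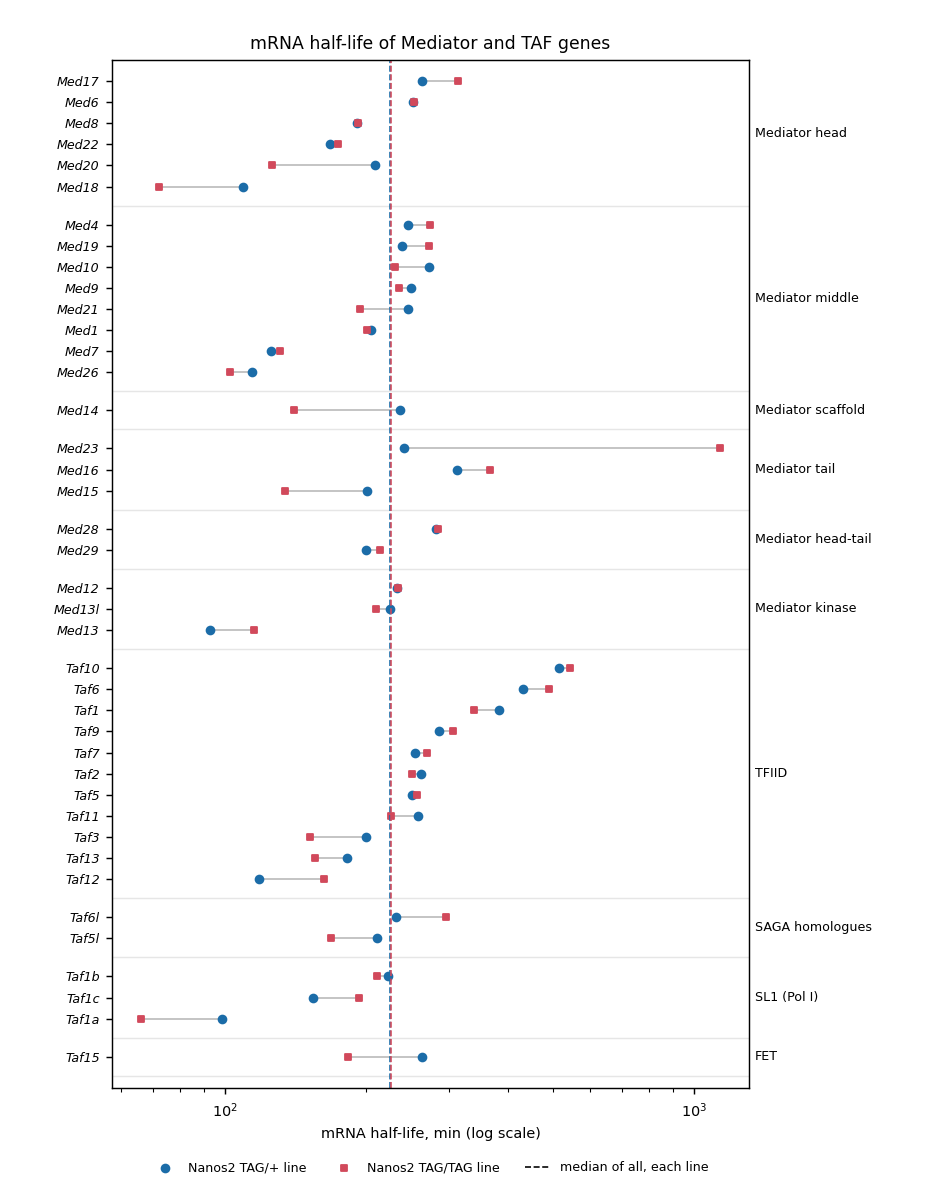
mRNA half-lives of 40 Mediator and TAF transcripts, grouped by module. The x axis is half-life in min on a log scale, circles are the TAG/+ line, squares the TAG/TAG line, and dashed lines mark the medians of all 5806 transcripts (224 min and 226 min). *Taf10*, *Taf6* and *Taf1* lie furthest to the right in TAG/+, and *Med23* has the widest gap between the lines, from 241 min to 1133 min.

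Half-lives differed little between the lines, with few exceptions. The median log2 ratio of TAG/TAG to TAG/+ was 0.00 for the 40 transcripts and 0.04 for all transcripts, and 19 of the 40 (47.5%, beside 45.9% of all transcripts) were shorter in TAG/TAG by any amount. Past 1.5-fold, 1 transcript (2.50%) was longer-lived in TAG/TAG, beside 10.0% of all transcripts, and 3 (7.5%) were shorter-lived, beside 10.7%. The longer-lived one was *Med23*, a tail subunit that relays signals from RAS and ERK kinases. Its value in TAG/TAG lies between the last pair of chase times, 540 min and 1440 min, whereas that in TAG/+ lies before them. The FPKM of *Med23* differed much less, at 224 and 200.4.

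The shorter-lived ones were *Med14*, *Med20* and *Med18*. *Med14* was at 236 min in TAG/+ and 140.3 min in TAG/TAG, a log2 ratio of -0.75, while its FPKM was higher in TAG/TAG. *Med20* was at 209 min and 126 min, a log2 ratio of -0.73, and its FPKM was lower as well. *Med18* had a log2 ratio of -0.60 with little difference in FPKM. Level and half-life thus differed in opposite directions for *Med14* and in the same direction for *Med20*. Just short of 1.5-fold were *Med15*, the tail subunit bound by SREBP, at 201 min and 134 min, and *Taf1a*. Among the 11 genes lower in FPKM past 1.5-fold, 8 had a half-life. These were shorter-lived in TAG/TAG for *Med10*, *Med20*, *Med21*, *Taf13* and *Taf1b*, longer-lived for *Med17* (262 min and 314 min) and *Taf12* (118 min and 162 min), and nearly equal for *Med8* (191 min and 192 min). Across the 38 transcripts with both measurements, the difference in FPKM and the ratio of half-lives had a Spearman's rho of 0.12, and across 5152 transcripts one of 0.00.

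**Figure D5:**
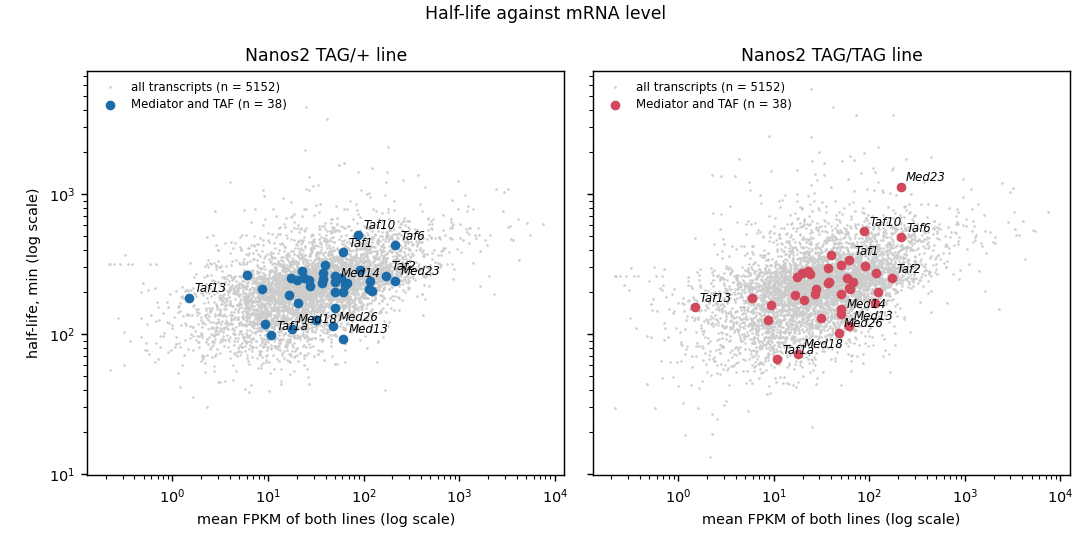
Half-life in min (log scale) against mean FPKM of both lines (log scale) in the TAG/+ line (left) and the TAG/TAG line (right). Large points are the 38 Mediator and TAF transcripts with both measurements and small grey points all 5152 transcripts. *Med13*, *Med26* and *Med18* lie in the lower part of the cloud, *Taf10*, *Taf6* and *Taf1* lie in the upper part, and *Med23* moves upwards in TAG/TAG.

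The 3′ UTRs of the members were searched for the sequence element that the study derived for NANOS2, a heptamer with an alternative base at 2 positions. In DNA letters, the element has 4 spellings. These are ATGAAAT, the most frequent one in the members, then ATGAATT, as well as ATTAAAT, and lastly ATTAATT. All were searched on the sense strand of the 3′ UTR of 1 transcript per gene (GRCm38, GENCODE M21). A match is a description of the sequence and not a site of binding. Of the 50 genes, 14 (28.0%) held 24 matches, 0.43 per kilobase, beside 38.7% of 13071 genes with 0.49 per kilobase. In 3′ UTRs with lengths inside the interquartile range of the members (296 to 1437 nucleotides), 4 of 24 members held a match (16.7%), and 28.0% of 5639 genes did. Among all transcripts with a half-life, those with a match had shorter median half-lives (196 min in TAG/+ and 200 min in TAG/TAG) than those without (245 min and 247 min). Among the members, 11 transcripts with a match had medians of 236 min and 194 min, and 29 without had 231 min and 214 min. Inside the same range of 3′ UTR lengths, all transcripts with a match had medians of 204 min and 205 min, and those without 239 min in both lines. In that range, 3 members with a match had 241 min and 234 min, and 16 without had 207 min in both lines.

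The matches are shown for genes with the largest differences in level or half-life and for the short-lived *Med13*, with 8 bases on each side in lower case and the element in capitals, read 5′ to 3′ on the transcript strand. *Med23* has a pair of matches in exon 29, near the end of its 3′ UTR, at chr10:24913396-24913418 and chr10:24913424-24913446 (plus strand). *Med14* has 4 in exon 31 on the minus strand of chromosome X, of which the first after the stop codon is at chrX:12676257-12676279 and the next at chrX:12676195-12676217. *Med13* has a pair in exon 30 at chr11:86270633-86270655 and chr11:86269907-86269929 (minus strand). *Taf13* has a pair in exon 4 at chr3:108581822-108581844 and chr3:108581890-108581912 (plus strand), *Taf12* has 1 in exon 6 at chr4:132293076-132293098 (plus strand), and *Med21* has 1 in exon 3 at chr6:146649316-146649338 (plus strand).
Med23 a: ctctctgtATGAAATgaaaccat
Med23 b: agttagaaATGAAATaaagccgt
Med14 a: tatccttgATGAAATtttagatg
Med14 b: gtataaccATGAAATtctagttt
Med13 a: gaggaacaATGAATTccaacata
Med13 b: tactaattATGAAATttcctgca
Taf13 a: gagagttgATTAAATctgtatgt
Taf13 b: cttacggtATTAAATtattattc
Taf12: aaggagttATTAATTgaagacac
Med21: aatttaatATTAAATttttaatg

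Genes with a match fell on either side of the line differences. *Med23* and *Med14*, both with ATGAAAT, had the largest half-life ratios in opposite directions, 2.23 and -0.75. *Med13*, whose half-life was among the shortest, holds the element, and *Med18*, *Med26*, *Med7* and *Taf1a*, the other transcripts below the first quartile, have none. Of the genes with the largest differences in FPKM, *Taf13* holds a pair and *Med30*, *Taf1d* and *Med8* hold none. A match was present in 28.0% of the members and 38.7% of all genes. The part of the element in these values was not tested.

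Genes of proteins that work with Mediator and TFIID were also described. Of 34 genes of the kinase pair and its cyclin, TBP, the general transcription factors and RNA polymerase II, 28 had an FPKM, with a median of 45.0 in TAG/+ and 31.1 in TAG/TAG. Past 1.5-fold, 7 of these 28 were lower in TAG/TAG, beside 19.4% of all genes, and 0 were higher, beside 22.8%. Among all genes with a mean FPKM of 20.5 to 71.9, these shares were 12.7% and 11.7%. *Cdk8* and *Cdk19*, the alternative kinases of the kinase module, were at 65.6 and 56.6 FPKM and at 11.1 and 12.2 FPKM. *Ccnc*, the cyclin that activates them, was at 1.47 and 0.29 from 28 and 6 reads. Half-lives were listed for 25 of these genes, with medians of 259 min and 280 min, and *Cdk19* was the only one past 1.5-fold, at 181 min and 80.3 min. *Tbp* had half-lives of 254 min and 270 min and no FPKM.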

How the data were processed

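Deposited tables of FPKM and half-life were used. The FPKM values (reads scaled to transcript length and a depth factor) were computed by the authors from 50-base single-end reads of 1 SENSE library per line. The submitters' processing notes name kallisto, and the genome build and annotation for RNA-seq are not given in the sources used here. The half-lives, in min, were deposited by the authors as 1 value per transcript and line. Per the methods, conversion rates from SlamDunk were modelled as first-order decay with nls in R. The 3′ end libraries comprised 2 replicates per line at each of 6 chase times. The methods name 2 biological replicates, each of 2 technical replicates that were merged before half-lives were computed. With 2 lines, the 2 replicates per line are read here as technical. In all, 11 (TAG/+) and 31 (TAG/TAG) transcripts have a half-life above 1440 min, the last chase time, and the depth behind the half-lives is unknown. The paper describes sorted SSCs and QIAzol, whereas the labels describe feeder depletion. The half-life sets were assigned to the lines by their names, and the FPKM columns by the letters of theirs. The CRAC libraries were not analysed here.

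Whole reads were recovered by multiplying FPKM by the mean annotated transcript length in GENCODE M21. They were whole within 0.01 for 100% of 13867 genes, and 37 genes had no such length. For those 13867 genes, the lengths behind the FPKM values thus match this annotation. The program that counted the reads is not known, although the notes name kallisto. Log2 FPKM ratios used a pseudocount of 0.1, and genes past 1.5-fold were counted beside all genes, with no test. Folds of single genes and their intervals came from the recovered reads, with no pseudocount. Sub-complex groups, partners and markers were lists. Values were given for the 3 highest and 3 lowest genes, those past 1.5-fold (the 8 largest per direction where more), paralogue pairs and kinase-module partners, and others were named within their group. The members and lists were chosen with earlier results of these data known. The 3′ UTR was that of the APPRIS principal transcript, or otherwise the longest. Uniqueness was the percent of exonic 50-base windows found once in GRCm38. Of 50 genes, 21 overlap an exon of another protein-coding or long noncoding gene. Pseudogenes, small RNA genes and unconfirmed genes were not counted as overlaps. Over 95% of windows were unique for 41 genes. Scripts were tested on simulated data and used Python 3.11.15, numpy 2.4.6, pandas 2.3.3, scipy 1.17.1 and matplotlib 3.10.9. Alternatives were other pseudocounts, filters, folds, centring, backgrounds and member sets.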

Additional observations from a re-analysis of the deposited data

How the results depend on the processing

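No paired analysis was possible because each line gave 1 RNA-seq library and 1 half-life per transcript, which also left no replicate to leave out. Under 23 alternatives, 4 of them chosen after seeing the data, 67 of 77 values stayed within the limits set for a change and 10 did not. With 2-fold in place of 1.5-fold, 0 genes were higher and 4 lower in FPKM, and 0 transcripts were shorter-lived. Among genes with a mean FPKM inside the interquartile range, chosen after seeing the data, 4 were lower. Centred on the median ratio of all transcripts, 5 were shorter-lived in place of 3. With half-lives up to 540 min, or without *Med23* (chosen after seeing the data), 0 were longer-lived. With only Mediator and TFIID subunits, the median half-life in TAG/TAG was 228 min in place of 212 min. With means in place of medians, it was 247 min, and the difference between members and all transcripts in TAG/+ was -19.6 min in place of 10.03 min. As medians, members lay above all transcripts in TAG/+ under every setting tried and below them in TAG/TAG (a difference of -13.6 min in the report's setting), except with only Mediator and TFIID subunits, where they lay 2.09 min above. *Taf13* in TAG/TAG rests on 4 reads, and half-lives have no error.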
